A study of Homo sapiens with 4 samples.

Results

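The SATB1 library is a chromatin immunoprecipitation sequencing (ChIP-seq) experiment in HepG2, an established human liver cancer cell line. Its members are all 3296 peaks of the SATB1 peak list, out of 46380 peaks in the 3 lists of the series, or 7.11% of them. The cells of every group were crosslinked with 1% formaldehyde for 10 min, and nothing else in the labels sets the groups apart except the antibody, which was against SATB1, SMRC1 or NFIC. An input library is also named and is not analysed here. The SMRC1 list with 29441 peaks and the NFIC list with 13643 peaks serve below as a reference for the same measures. Each antibody had 1 library, so no value has a replicate, no test between antibodies could be made, and intervals in parentheses (95%, exact Clopper-Pearson for shares) cover counting error only. Sequencing depth is unknown, because the lists hold peaks and not reads per library, and no value in them checks an antibody against its target.

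SATB1 is a nuclear protein that binds AT-rich DNA, mostly in stretches where the strands part easily under stress, and is best known for organising chromatin loops around genes of developing T cells. NFIC belongs to the nuclear factor I proteins, DNA-binding regulators that act at enhancers and promoters in many tissues, liver among them. A peak is a stretch of genome where immunoprecipitated fragments pile up above the local background, its summit is the position of the highest pile-up, and a peak caller's width reflects both how far the bound region extends and how far the caller joins neighbouring pile-ups.

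SATB1 peaks were narrow. Their median width was 0.40 kb, with quartiles at 339 and 520 bp. The narrowest width, 309 bp, was shared by 231 peaks, or 7.01% of the list (6.16 to 7.93%), and no peak of any list was under 300 bp. Many peaks also shared the narrowest width in the other lists, 581 at 312 bp in SMRC1 (1.97%) and 577 at 308 bp in NFIC (4.23%). Each list thus has a lowest width at which peaks pile up, and the narrowest class lies just above it. Of the SATB1 peaks, 1652 (50.1%, 48.4 to 51.8%) were 300 to under 400 bp wide, 1105 (33.5%) were 400 to under 600 bp and 475 (14.4%) were 600 to under 1000 bp. Wide peaks, meaning those of at least 1000 bp, numbered 64 (1.94%, 1.5 to 2.47%) and held 5.56% of all bases under SATB1 peaks. The reference lists had fewer peaks under 400 bp: 19.5% in SMRC1, whose median width was 607 bp, and 29.5% in NFIC, whose median was 490 bp.

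Compared with NFIC, the SATB1 list combined a narrow body with a long tail. Its widest peak, at 4453 bp, was 11.2 times the list's median, against 8.74 times in SMRC1 (5308 bp) and 4.12 times in NFIC (2020 bp). Peaks of at least 1000 bp were still a smaller share of SATB1 (1.94%) than of NFIC (2.76%), while from 1250 bp the shares were 0.789 and 0.608% and from 1500 bp 0.364 and 0.161%. SMRC1 was above both at each of these widths, at 15.4, 7.50 and 3.83%. The tail ends in few peaks: the next widest SATB1 peak was 2820 bp, against 5139 bp in SMRC1, and 12 SATB1 peaks reached 1500 bp. The multiple of 11.2 thus rests on the widest peak alone. The 99th percentile of width was 1145 bp in SATB1, 2071 bp in SMRC1 and 1160 bp in NFIC.

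**Figure D1:**
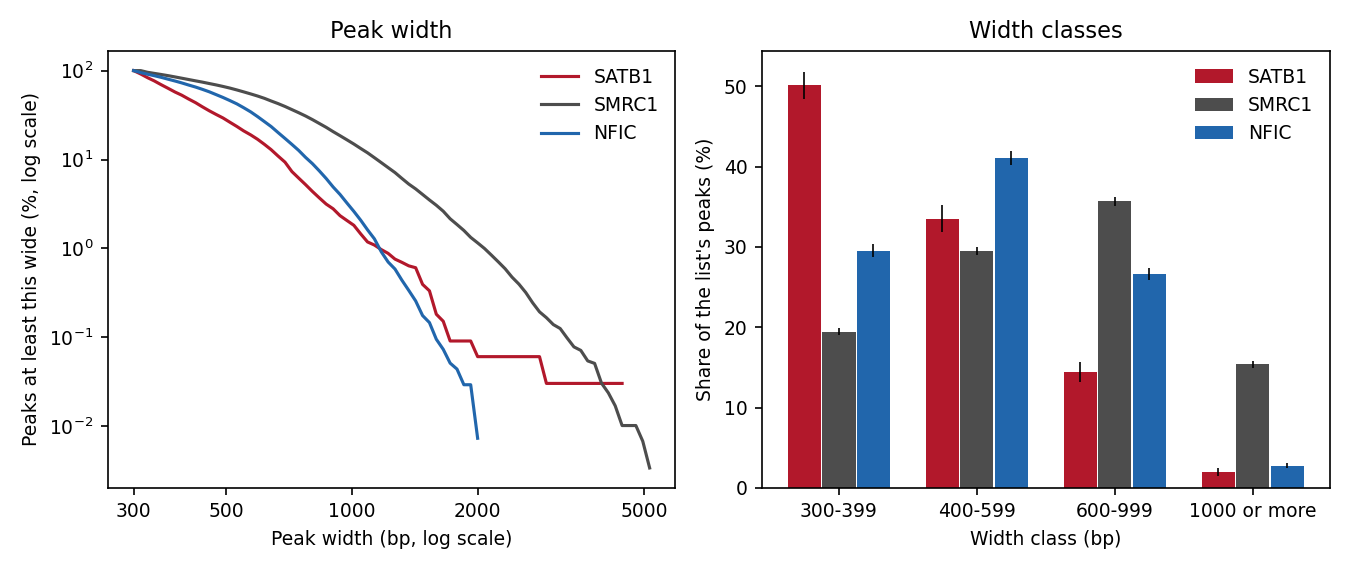
Peak widths in the SATB1, SMRC1 and NFIC lists. Left, share of each list's peaks (%, log scale) at least as wide as the width on the x axis (bp, log scale). Right, share of each list's peaks (%) in 4 width classes (bp), with bars for the list's share and error bars for the 95% exact interval. SATB1 has 50.1% of its peaks under 400 bp and 1.94% at 1000 bp or over, and its longest peak, 4453 bp, lies beyond the end of the NFIC curve.

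Over the full lists, width followed enrichment less closely in SATB1 than in the reference lists. Over peaks, Spearman's rho between width and the authors' −log10 q, the strength of the call, was 0.30 over 3296 SATB1 peaks, 0.71 over 29441 SMRC1 peaks and 0.70 over 13643 NFIC peaks. These are descriptions across peaks of 1 library each, and width and strength share the same pile-up. The lists also cover unlike ranges of strength. A −log10 q of 20 or more was reached by 1.88% of SATB1 peaks, 19.4% of SMRC1 peaks and 21.1% of NFIC peaks. How far that narrower range lowers the SATB1 value was not tested. From the narrowest to the widest SATB1 class the median −log10 q went from 4.79 through 5.79 and 7.22 to 10.9. The median fold over local background, the authors' ratio at the summit, went from 3.47 through 3.58 and 3.64 to 4.50, a flatter course than the 4.02 to 7.93 of NFIC over the same classes.

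Much of the narrowness went with weak calls. A −log10 q of at least 5 was reached by 55.9% of SATB1 peaks, against 76.2% in SMRC1 and 80.7% in NFIC. Among peaks with −log10 q from 5 to 10, the SATB1 median width was 404 bp, that of NFIC 423 bp and that of SMRC1 525 bp. At −log10 q of 20 or more, the 62 SATB1 peaks had a median width of 685 bp, again near NFIC (708 bp) and under SMRC1 (985.5 bp). From 10 to 20 the medians were 484.5, 539.5 and 718 bp for SATB1, NFIC and SMRC1. In these ranges the SATB1 median was below both, and nearer to that of NFIC. Among weaker calls it was slightly above NFIC and still below SMRC1. From 1 to 3 the medians were 361, 353 and 380 bp for SATB1, NFIC and SMRC1, and from 3 to 5 they were 375, 363 and 411 bp. In the 5 to 10 range, 1.66% of SATB1 peaks (1.05 to 2.48%) were wide, against 0.404% of NFIC peaks (0.244 to 0.631%) and 5.05% of SMRC1 peaks.

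The reads behind a SATB1 peak were few. Solving the caller's formulas for the deposited fold and p-value gave a median of 32 reads at the summit, with quartiles at 24 and 41 and a range of 8 to 338. Median reads rose by width class from 29 through 32 and 38 to 44. The median local background, in reads expected at the depth of the SATB1 library, was 7.89, 8.67, 9.65 and 9.21 in the same order. Wide peaks thus had more reads at the summit than narrow ones over much the same background.

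Neighbouring SATB1 peaks lay far apart in general, and a small share sat almost end to end. Over the 3272 gaps between neighbours on the same chromosome the median was 253 kb (234 to 274 kb), with quartiles at 61.7 and 843 kb and a range of 48 bp to 33.7 Mb. Gaps of 100 kb to 1 Mb made up 46.8% and gaps of at least 1 Mb 21.9%. At the other end, 340 gaps (10.4%) were under 10 kb, and 143 of these (42.1%, 36.8 to 47.5%) were under 1 kb. The corresponding share of sub-10 kb gaps was 24.6% (23.8 to 25.5%) in SMRC1, with a median gap of 22.7 kb, and 18.7% (17.1 to 20.5%) in NFIC, with a median gap of 64 kb.

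Gaps shrink as a list grows, so the reference lists were also reduced to their 3296 strongest peaks by −log10 q. Their median gaps were then 262 kb for SMRC1 and 280 kb for NFIC, close to that of SATB1. The short gaps still set SATB1 apart from these reduced lists, with 143 under 1 kb against 26 in SMRC1 and 22 in NFIC. Strength was not matched in that comparison, since the reduced lists hold only strong peaks. Among SATB1 peaks with −log10 q of at least 5 alone, 2.75% of gaps were under 1 kb, against 4.37% of all SATB1 gaps.

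The short gaps crowded toward the lower end. Of the 143 under 1 kb, 66 (46.2%) were under 200 bp, and their median was 217 bp, against 334.5 bp in SMRC1 and 443 bp in NFIC. The closest pair lay 48 bp apart in band p11.23 of chromosome 20, where peaks of 371 and 386 bp had folds of 2.93 and 3.34. Pairs 49 bp apart followed in band q23 of chromosome 15 and in band q31.2 of chromosome 5. The 10 closest pairs had gaps of 48 to 65 bp, and in 7 of them a single SMRC1 peak covered the whole gap.

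Where SATB1 had 2 peaks, SMRC1 often had 1. A single SMRC1 peak spanned the gap in 76 of the 143 SATB1 gaps under 1 kb (53.1%, 44.6 to 61.5%), and a single NFIC peak in 19 (13.3%, 8.19 to 20.0%). For the 389 NFIC gaps under 1 kb, an SMRC1 peak spanned 157 (40.4%, 35.4 to 45.4%), so the interval of the NFIC share overlaps that of SATB1 at its edge. SATB1 peaks met SMRC1 often in general: 78.5% of all SATB1 peaks overlapped an SMRC1 peak by at least 1 bp. For NFIC peaks that share was 44.9, 49.3, 60.2 and 84.0% by width class from narrowest to widest. Whether the spanned shares exceed what this general overlap would give was not tested. The number of distinct bound stretches behind a close pair of peaks cannot be told from the lists.

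**Figure D2:**
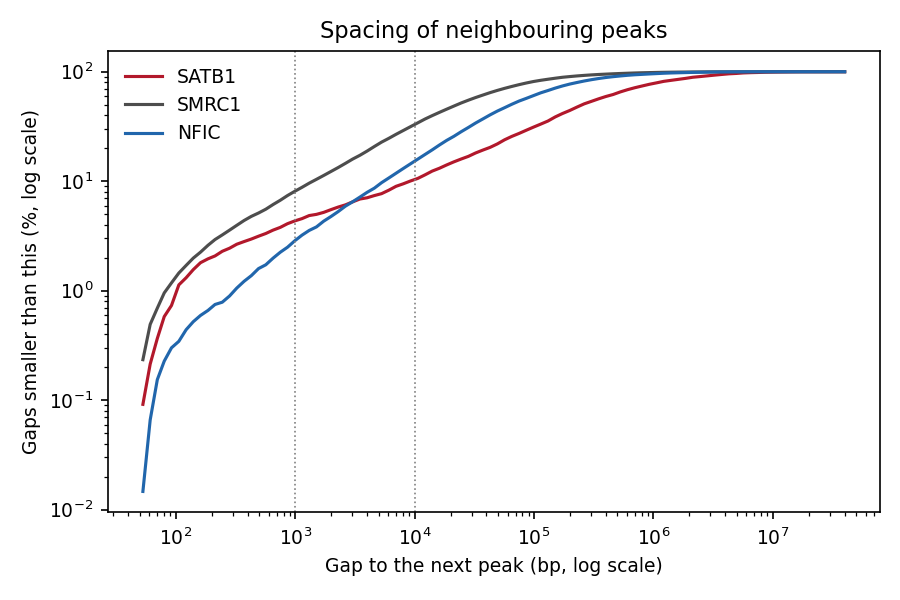
Gaps between neighbouring peaks. Share of each list's gaps (%, log scale) smaller than the distance on the x axis (bp, log scale); dotted lines mark 1 kb and 10 kb. The SATB1 curve lies above that of NFIC at 1 kb (4.37% against 2.86%) and below it at 10 kb (10.4% against 15.3%).

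As a share of peak width, summits of SATB1 peaks sat in the middle on balance and were more scattered than in the reference lists. In base pairs they were not the most scattered. The median distance from the centre of the peak was 51.25 bp in SATB1, 59.5 bp in SMRC1 and 40.5 bp in NFIC. The median position was 49.7% of the width from the start (48.8 to 50.4%), with quartiles at 37.0 and 61.5%. The middle 20% of the peak's width held 40.9% of SATB1 summits, against 50.02% in SMRC1 and 57.8% in NFIC. Off-centre summits, meaning those in the 20% of the width next to either edge, numbered 343 (10.4%, 9.38 to 11.5%), against 5.82% in SMRC1 and 3.92% in NFIC. Of the 343, 195 lay near the start and 148 near the end.

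Off-centre summits went with weak calls in all 3 lists. In SATB1 such peaks had a median fold of 3.01 and a median −log10 q of 3.13, against 3.60 and 5.79 for the others. Among SATB1 peaks with −log10 q of 1 to 3, 35.6% were off-centre, against 28.0% in SMRC1 and 28.5% in NFIC. From 5 to 10 the share was 3.82%, next to 3.81% in SMRC1 and 3.07% in NFIC. Among all SATB1 peaks with −log10 q of at least 5 it was 3.47% (2.68 to 4.41%), against 2.56% in SMRC1 and 1.55% in NFIC. From 10 to 20 it was 2.54% in SATB1 (1.22 to 4.62%), 1.87% in SMRC1 and 0.729% in NFIC (0.472 to 1.07%). The SATB1 share was thus near those of the reference lists from 5 to 10 and above both in the weakest range, and above NFIC from 10 to 20.

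The broader SATB1 peaks differed more from the reference lists, although they followed strength as well. Off-centre shares by width class in SATB1 were 11.1, 7.24, 14.1 and 20.3% from narrowest to widest. In NFIC they were 7.99, 2.37, 1.68 and 5.05%, and in SMRC1 11.7, 4.73, 3.60 and 5.63%. In the narrowest class SMRC1 was thus slightly above SATB1. Among peaks of at least 600 bp with −log10 q of at least 5, 39 of 410 SATB1 peaks were off-centre (9.51%), against 426 of 14041 in SMRC1 (3.03%) and 52 of 3873 in NFIC (1.34%). The same split within −log10 q of 5 to 10 gave 12.2, 6.39 and 6.15%. Over the ranges 1 to 3, 3 to 5, 5 to 10, 10 to 20 and 20 or more, the SATB1 shares were 51.7, 26.0, 12.2, 6.82 and 2.50%. They were 31.8, 17.9, 6.39, 2.53 and 1.40% in SMRC1, and 23.3, 19.6, 6.15, 1.69 and 0.0890% in NFIC. Lopsided broad peaks were therefore more frequent in SATB1 at matched strength too. They were still mostly weak calls in proportion, and at −log10 q of 20 or more the count was 1 of 40 SATB1 peaks.

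Wide peaks with an off-centre summit numbered 13, 7 toward the start and 6 toward the end, and the lowest −log10 q among them was 5.37. The summit nearest to an edge as a share of the width lay 163 bp inside a 1254 bp peak at chr6:151186713-151187966 in band q25.1, at 13.0% of its width. The next lay 212 bp from the end of a 1471 bp peak at chr20:30195160-30196630 in band q11.21, which had a neighbour 173 bp before its start. The remaining peaks of the 5 most lopsided were single ones, at chr17:18871292-18872299, chr17:37309873-37310896 and chr9:115805087-115806160, and none of these 3 overlapped an SMRC1 or NFIC peak.

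Off-centre summits were more frequent in SATB1 peaks with a near neighbour, though the intervals touch and no test was made. Of the 274 SATB1 peaks with a neighbour under 1 kb away (8.31% of the list), 41 were off-centre (15%, 11.0 to 19.7%), against 302 of 3022 others (9.99%, 8.95 to 11.1%), and the intervals touch. The SATB1 share was 10.7% (5.97 to 17.3%) with a neighbour before the peak only, 17.6% (11.5 to 25.2%) with one after it only, and 4 of 12 with both. SATB1 summits leaned only slightly toward the neighbour: among 262 peaks with a neighbour on 1 side, the median position measured toward it was 52.4%. The quartiles of that position were 39.6 and 67.7%, which span the centre. The same median was 51.9% over 4236 SMRC1 peaks and 49.3% over 736 NFIC peaks.

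**Figure D3:**
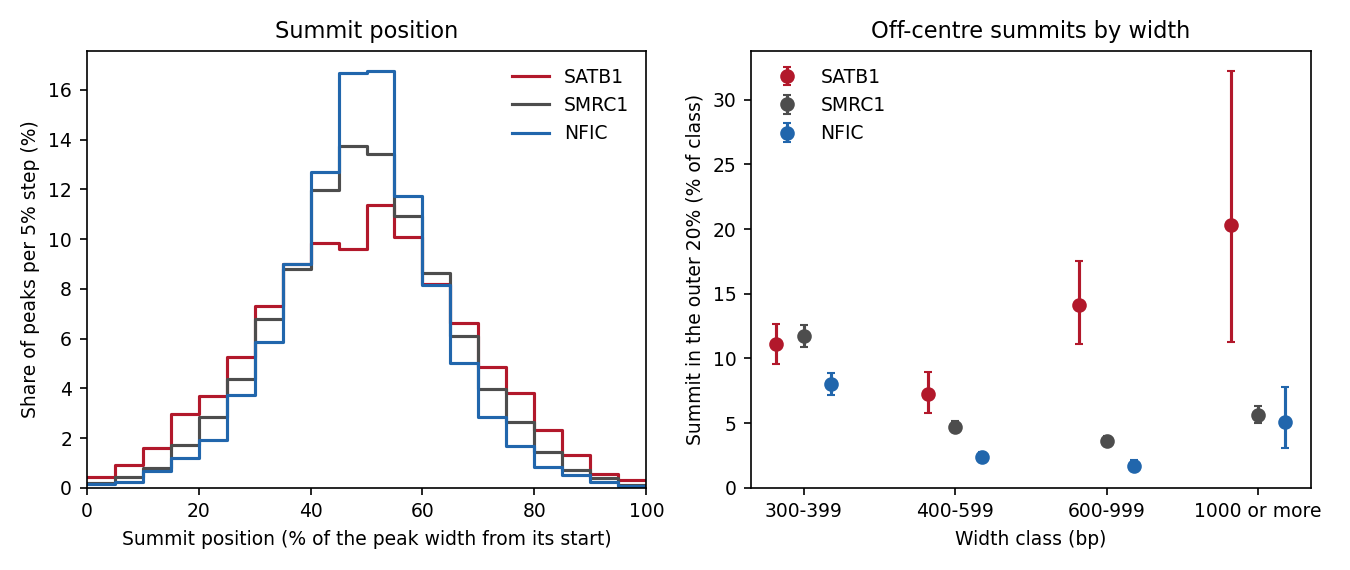
Summit positions. Left, share of each list's peaks (%) per step of 5% of the peak width, counted from the start. Right, share of peaks (%) with an off-centre summit, in the 20% of the width next to either edge, by width class (bp), with 95% exact intervals. The SATB1 outline is lower in the middle than that of NFIC, and the SATB1 points for the classes from 600 bp, 14.1 and 20.3%, lie above those of both reference lists.

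Most SATB1 peaks overlapped an SMRC1 peak, and the wide ones did so less often than the class below. Over the whole list 2586 peaks (78.5%) overlapped an SMRC1 peak by at least 1 bp and 902 (27.4%) an NFIC peak. By width class the SMRC1 share rose from 74.5% (72.3 to 76.6%) through 81.5% (79.1 to 83.8%) to 86.7% (83.4 to 89.7%), and was 65.6% (52.7 to 77.1%), 42 of 64, in wide peaks. In NFIC peaks, by contrast, the overlap with SMRC1 rose through every class, from 44.9 to 84.0% (79.9 to 87.6%). The share of SATB1 peaks that met NFIC by at least 1 bp was 23.8, 28.2, 35.6 and 43.8% (28 of 64) from narrowest to widest, a measure that a wider peak meets more easily. By bases, the share inside NFIC peaks was nearly flat, at 20.6, 21.8, 25.1 and 25.2%, and 23.4% of wide peaks had at least 50% of their width in NFIC.

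The lower share in wide SATB1 peaks depends on where the class begins. From 1250 bp it was 76.9% (56.4 to 91.0%), 20 of 26 peaks, an interval that includes the 86.7% of the class below, and from 1500 bp it was 6 of 12. It held among peaks with −log10 q of at least 5, where wide peaks gave 65.0% (51.6 to 76.9%) and the class below gave 86.6% (82.5 to 89.96%). By bases, 50.1% of the sequence under wide SATB1 peaks lay in SMRC1 peaks, against 77.7% in the class below. Where they did overlap, 20 of the 42 wide SATB1 peaks were wider than the SMRC1 peaks they met (47.6%), against 20.6% in the class below and 2.68% in the narrowest.

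**Figure D4:**
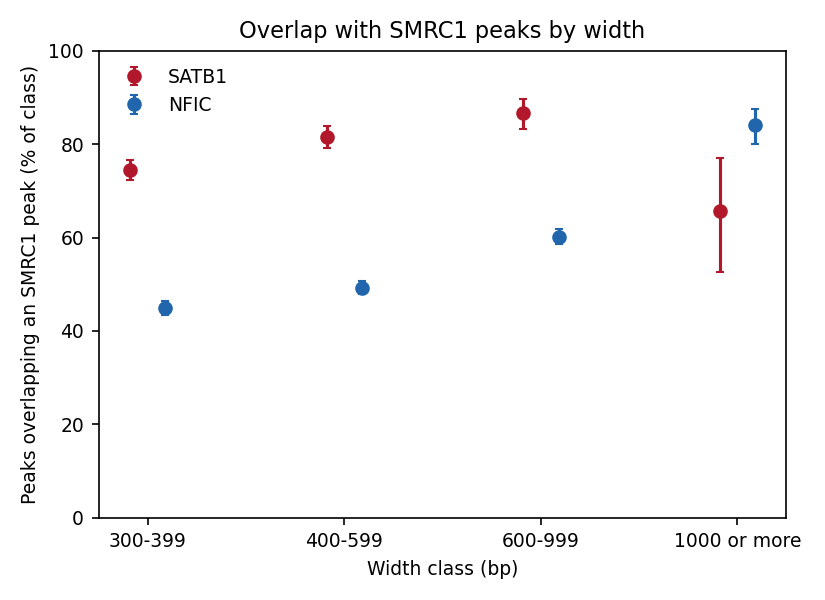
Overlap with SMRC1 peaks by width. Share of SATB1 and NFIC peaks (%) that overlap an SMRC1 peak by at least 1 bp in each width class (bp), with 95% exact intervals. SATB1 rises to 86.7% at 600 to under 1000 bp and is at 65.6% in the 64 peaks of 1000 bp or over, where NFIC is at 84.0%.

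The 22 wide SATB1 peaks outside SMRC1 had a lower background and lay closer together than the 42 that overlapped it. Their median fold was 5.57 (range 3.06 to 20.0) against 4.22, from a median of 37.5 reads over a background of 6.14 against 48 reads over 10.5. Of the 22, 15 stood within 10 kb of another SATB1 peak, and the median distance to the nearest was 1.88 kb, against 19 of 42 and 11.0 kb. A lower background outside SMRC1 was also seen under 600 bp, at 4.38 against 8.77. Whether background plays a part in the overlap was not tested. Of the 22, 20 overlapped no NFIC peak either.

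The widest SATB1 peaks were of both kinds. The widest, 4453 bp at chr2:21227712-21232164 in band p24.1, had a fold of 8.67 and a −log10 q of 33.6 from 61 reads at the summit, and overlapped no SMRC1 or NFIC peak. The second, 2820 bp at chr16:30788670-30791489 in band p11.2, had a fold of 7.12 and likewise met neither. The third, 1974 bp at chr14:24114764-24116737 in band q11.2, had a fold of 3.39 and lay wholly inside an SMRC1 peak. Of the 10 widest, 5 overlapped neither list, and 8 had another SATB1 peak within 10 kb. None of the 10 widest NFIC peaks lay outside SMRC1.

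Others of the 10 widest showed the same mixture. The peak of 1711 bp at chr17:8022779-8024489 (band p13.1), that of 1607 bp at chr3:51432942-51434548 (band p21.2) and that of 1562 bp at chr15:75506025-75507586 (band q24.2) overlapped neither reference list. At chr1:28836029-28837684 (band p35.3), 98.6% of a 1656 bp peak lay in an SMRC1 peak. Partial overlap was seen at chr2:21221556-21223139 (1584 bp, 71.6% in SMRC1), chr16:57417610-57419179 (1570 bp, 59.3%) and chr1:156357058-156358620 (1563 bp, 43.5%). Great width and great strength went together in part. The 10 widest ranked between 26 and 520 of 3296 in −log10 q, while all 64 wide peaks ranked between 1 and 3072. Of the 64 strongest SATB1 peaks 12 were wide, against 1.94% of the whole list. The strongest peak of all was a wide one of 1029 bp.

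Peaks no more than 10 kb apart were joined into loci, which gave 2956 SATB1 loci. Of these, 2697 held a single peak and 259 held several, which took in 18.2% of the list's peaks (16.9 to 19.5%). Pairs made up 208 of the 259, and 51 loci held 3 or more peaks, with 183 peaks in all (5.55%). The largest held 7. In the full reference lists 52.6% of SMRC1 peaks and 27.2% of NFIC peaks were in multi-peak loci, and in their 3296 strongest peaks 13.6 and 9.13%. Strength was again not matched, and among SATB1 peaks with −log10 q of at least 5 the share was 11.3%.

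Multi-peak SATB1 loci held a larger share of wide peaks, and their members met SMRC1 less often. Median widths were 398 bp for single peaks, 396 bp in pairs and 434 bp in loci of 3 or more, so members of pairs were no wider in the middle of their range. The share of wide peaks was 1.11% among single peaks, 4.09% in pairs and 9.29% in loci of 3 or more. It rose in the same order in the reference lists, at 12.4, 15.5 and 20.4% in SMRC1 and 2.39, 3.25 and 4.90% in NFIC. The share of SATB1 peaks at SMRC1 was 80.3% (78.7 to 81.8%), 74.8% (70.3 to 78.9%) and 60.1% (52.6 to 67.3%) in the same order, while the share at NFIC was 26.4, 30.3 and 34.4%. In NFIC the overlap with SMRC1 went the other way, from 48.1% for single peaks through 60.05 to 66.0% (63.2 to 68.8%). Median fold differed little between the SATB1 groups, at 3.55, 3.43 and 3.57.

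Of the wide SATB1 peaks, 34 of 64 (53.1%) were in multi-peak loci, against 16.3 to 20.2% in the narrower classes. A neighbour under 1 kb away was found for 16 (25%), against 7.37 to 8.41%. The reference lists went the same way. In multi-peak loci were 62.0% of wide SMRC1 peaks, against 47.8 to 53.8%, and 37.0% of wide NFIC peaks, against 24.9 to 30.8%. A neighbour under 1 kb away was found for 19.3 and 10.4% of them. Multi-peak SATB1 loci spanned a median of 3.65 kb, from 0.776 to 31.0 kb. In 155 of them every peak overlapped SMRC1, in 65 some did and in 39 none did.

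The locus with the most SATB1 peaks, 7 in 16.2 kb at chr11:2662452-2678607 in band p15.5, met no SMRC1 peak. Its folds were 3.34 to 5.12 with −log10 q of 2.48 to 5.91, its widths were 309 to 1015 bp, and 1 of its peaks overlapped an NFIC peak. The next, 6 peaks in 31.0 kb at chr19:1244764-1275770 in band p13.3, had all 6 at SMRC1, which had 9 peaks across the same span. At chr20:30191793-30196630 in band q11.21 the 5 SATB1 peaks, separated by 145 to 1014 bp, all lay inside a single SMRC1 peak of 5308 bp, the widest of that list. The background at these 5 was high, with a median of 16.7 against 3.17 in the locus of 7.

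The remaining loci of 5 peaks ranged from partial to no overlap with SMRC1. Those at chr3:51422141-51435714 (band p21.2), chr7:73003895-73017597 (band q11.23), chr6:74223393-74231391 (band q13) and chr16:50664418-50673655 (band q12.1) each had 2 of 5 peaks at SMRC1. That at chr6:26311286-26331838 (band p22.2) had none at SMRC1 or NFIC, and that at chr19:6700723-6715444 (band p13.3) spanned 14.7 kb in which neither reference list had a peak. Folds in the latter were 3.16 to 5.08 with −log10 q of 1.99 to 4.41, so like the locus of 7 it rests mostly on weak calls.

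The locus with the most bases under SATB1 peaks was that of 4 peaks at chr2:21221556-21232164 in band p24.1. Its summed width was 6753 bp, against 3935 bp in the next locus by that measure, and peaks covered 63.7% of its 10.6 kb, next to 68.1% of the 4.84 kb of the locus on chromosome 20. From its start the peaks were 1584, 404, 312 and 4453 bp wide, with folds of 6.53, 4.42, 4.15 and 8.67. The first 3 lay within the first 2858 bp, where SMRC1 had 3 peaks and NFIC 2. The fourth began 3298 bp after the third, and neither reference list had a peak within it.

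**Figure D5:**
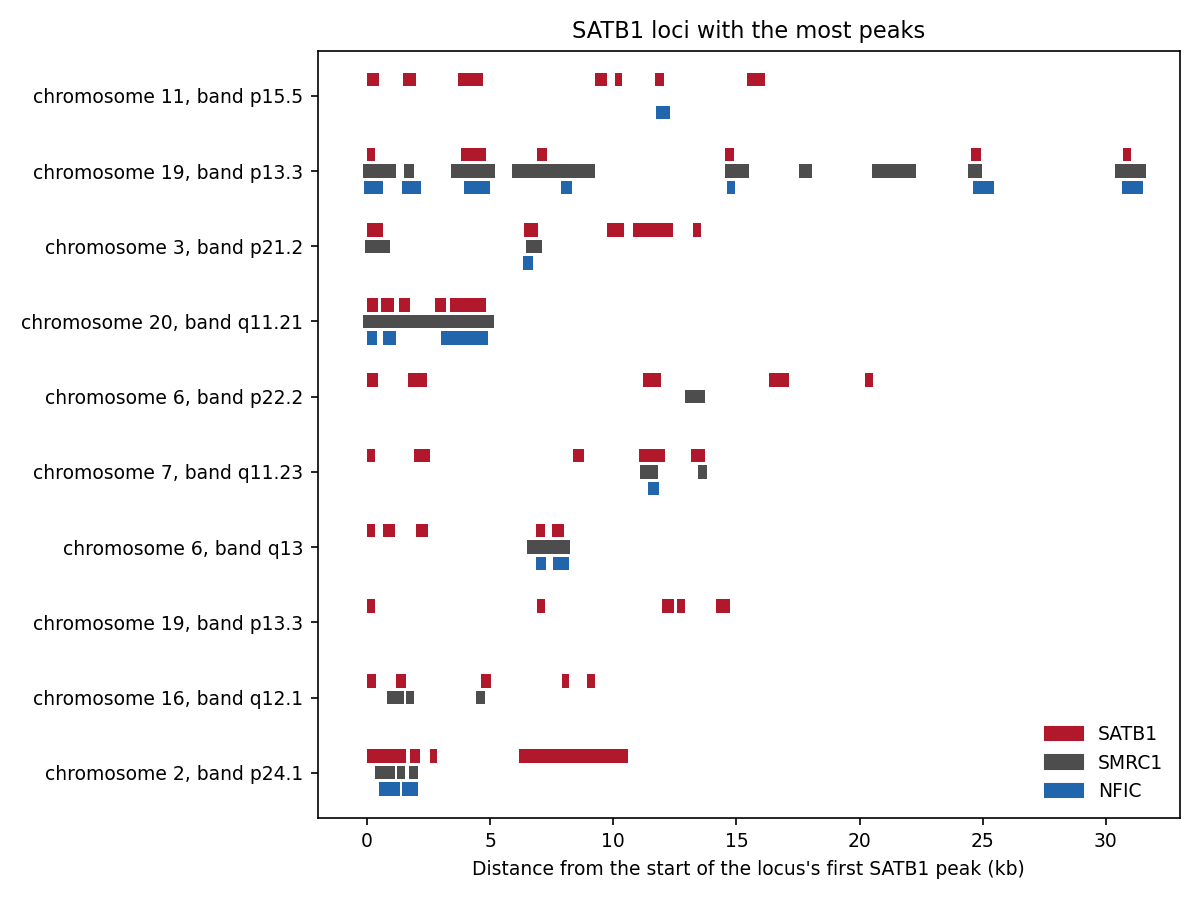
The 10 SATB1 loci with the most peaks, ties ordered by summed width. Each row is a locus, boxes are peaks drawn to scale in kb from the start of the first SATB1 peak, and colours give the list (SATB1 above, SMRC1 in the middle, NFIC below). The locus of 7 peaks on chromosome 11 has no SMRC1 peak, the 5 peaks in band q11.21 of chromosome 20 share a single SMRC1 peak, and the last row shows the 4453 bp peak without a counterpart.

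No hg19 gene annotation was used here, so no peak was placed in a gene body, an exon or a UTR, and the listed genes of liver, of all cells and of other tissues were not counted. As textbook background at the level of chromosome bands, and chosen after the positions were seen, some of these bands hold genes that liver cells express strongly. Band p24.1 of chromosome 2 holds APOB, which encodes the structural protein of low-density lipoprotein, and band p13.3 of chromosome 19 holds C3, the central complement protein. Band q32.13 of chromosome 14, with a single wide peak of 1462 bp at chr14:94842121-94843582, holds SERPINA1, the alpha-1 antitrypsin gene. Band p22.1 of chromosome 7, with a wide peak of 1466 bp at chr7:5565308-5566773 in a locus of 4, holds ACTB, and band q13 of chromosome 6 holds EEF1A1, both abundant in most cells. Each band holds many other genes, and a peak in a band says nothing about which of them it lies in. The genes named here were picked from longer lists. Other bands named above, such as p15.5 of chromosome 11 with the locus of 7 peaks, are given no gene. Listed genes in bands without a wide peak or multi-peak locus were not counted, so no link with liver genes can be read from these examples.

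Chromosomes 2, 6, 14, 16, 17 and 20, a set taken from earlier work on these data, held 1320 SATB1 peaks (40% of the list), with a median background of 11.4 reads against 7.05 on the other chromosomes. SATB1 peaks also lay closer together in the set, with a median gap of 175 kb against 344 kb elsewhere. Multi-peak loci took in 23.7% of SATB1 peaks in the set (21.4 to 26.1%) and 14.5% elsewhere (13.0 to 16.1%). The set is not uniform in this: the share was 30.3% on chromosome 6 and 29.7% on 17 but 16.7% on 14. Outside the set it was 25% on chromosome 19, with a background of 6.77, and 21.9% on 11. Median gaps were 188 kb on chromosome 6, 125 kb on 17, 235 kb on 14, 122 kb on 19 and 195 kb on 11. Wide peaks made up 2.80% in the set (1.98 to 3.84%) and 1.37% elsewhere (0.902 to 1.98%), while off-centre summits made up 9.92 and 10.7%. Whether background or the closer spacing plays a part was not tested. The set was chosen with earlier results of these data known, so its differences from the other chromosomes may follow partly from that choice. On the other chromosomes alone, 17 of 27 wide peaks overlapped SMRC1 (63.0%) against 86.5% of the class below, so that difference was as large without the 6 chromosomes.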

How the data were processed

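ChIP-seq peak lists of 3 HepG2 libraries were analysed, each with 1 sample. Per the submitters' processing notes, the genome build was hg19 and the tools included Bowtie 1.1.2, SAMtools, MACS2 2.1.1 and deepTools, with settings not given in the sources used here. Every list follows the narrowPeak layout of 10 columns, without a header. The deposited fold is the authors' ratio over local background at the summit, the −log10 p and −log10 q, as deposited, come from their caller, and the deposited score was not used for results. Positions, which are the authors' own, are printed counted from 1. The lowest −log10 q of the SATB1 list was 1.04.

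Width was end minus start, a gap was the distance to the next peak on the same chromosome, and the summit position was the summit offset divided by the width. Loci joined peaks at most 10 kb apart. Reads and background at SATB1 summits were recovered from the deposited fold and −log10 p by the Poisson formulas of MACS2 within 0.001, which gave a solution for 3296 of 3296 peaks. Bands are those of hg19 in circlize 0.4.16. Python 3.11.15, numpy 2.4.6, pandas 2.3.3 and scipy 1.17.1 were used, and the measures were tested on simulated lists.

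Named peaks are the 10 widest, the 10 loci with the most peaks, the closest pairs and the 5 summits nearest an edge among wide peaks, plus 2 wide peaks in bands of listed genes, chosen after their positions were seen. The members, the classes, the gene lists and the set of 6 chromosomes were chosen with earlier results of these data known. Alternatives were other thresholds, stronger peaks only, other chromosomes only and shortened reference lists.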

Additional observations from a re-analysis of the deposited data

How the results depend on the processing

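No replicate could be left out, since each antibody has 1 library. No paired analysis was possible because each group has 1 sample and no result comes from a test. The alternatives moved 33 recomputed values out of their interval or, for counts, by more than 1.5 times, and left 20 within it. With −log10 q of at least 2 the SATB1 share with an off-centre summit was 9.17%. With −log10 q of at least 5, 42.3% of SATB1 peaks were under 400 bp, 22.2% were at least 600 bp, 2.75% of gaps were under 1 kb and 6.21% under 10 kb, 11.3% of peaks were in multi-peak loci and 3.47% were off-centre. Without chromosomes 2, 6, 14, 16, 17 and 20 these shares were 53.1, 13.8, 3.22, 8.32 and 14.5%, with the off-centre share within its interval. Joining at 5 kb or 25 kb put 13.7 or 27.3% of peaks in multi-peak loci, and the outer 10% of the width on either side held 2.21% of summits. Wide peaks numbered 146 from 800 bp and 12 from 1500 bp, and 77.4 and 50% of them overlapped SMRC1. At an overlap of at least 50% of the SATB1 peak, 23.4% of wide peaks overlapped NFIC. In the 3296 strongest SMRC1 peaks the shares under 400 bp and from 600 bp were 0.0303 and 98.1%, gaps under 1 kb and 10 kb were 0.794 and 7.36%, 13.6% of peaks were in multi-peak loci, the median summit position was 49.7% and 1.00% were off-centre. In the 3296 strongest NFIC peaks these were 0.546, 74.6, 0.672, 4.74 and 9.13%, and 0.152% were off-centre. For the overlap of wide peaks with SMRC1 or NFIC, the thresholds of 800, 1250 and 1500 bp, the −log10 q of at least 5 and the run without the 6 chromosomes were chosen after seeing the data, as were the ranges of −log10 q. Few reads per summit limit what the narrow peaks can show of shape.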
